A study of Rattus norvegicus with 12 samples.

Results

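The joint of a rat osteoarthritis model was compared with sham joints by bulk RNA-seq, using the 4 libraries labelled model and the 4 labelled sham, which are 8 of the 12 libraries of a study of acupuncture around the knee. All genes of the authors' table for this comparison were read, and those with a mean normalised value of at least 1 were tested. The labels give rat joint as the tissue and the group name only. The sources used here do not give strain, age, sex, how the model was made, what sham animals underwent or when joints were taken. Nothing says that replicates came from separate animals or that animals were not pooled, so a p-value reflects the spread of these libraries, which could be technical.

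A joint is built of articular cartilage, subchondral bone with marrow, synovium, ligament, fat and vessels, with skeletal muscle at its edge. In osteoarthritis cartilage is lost, the synovium thickens and can be invaded by vessels and macrophages, and collagen is laid down outside the cartilage. Type I interferons act through a receptor made of Ifnar1 and Ifnar2 and switch on a large set of antiviral genes, many of which carry an interferon-stimulated response element in the promoter. In a bulk sample, fewer cells of a type and less RNA per cell cannot be told apart, which holds for every gene group below.

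Recovered reads ranged from 15513095 in model 1 to 17078473 in sham 4, and 20205 of 22450 listed genes had a mean normalised value of at least 1 and were tested. Joint markers were present in every library. Chondrocyte markers made up 0.280%, 0.0235%, 0.282% and 0.154% of reads in model 1 to 4, against 0.224%, 0.188%, 0.0897% and 0.197% in sham 1 to 4. Red cell precursor markers were at 8.39%, 5.12%, 5.36% and 5.53% in model 1 to 4, against 4.57%, 4.92%, 4.09% and 6.41% in sham 1 to 4.

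A pair of libraries stood apart from the others of their group. On the first principal component, which held 42.7% of the variance, model 1 was at -0.27, with the other model libraries at 0.66, 0.34 and 0.22, and the sham libraries at 0.0048, -0.38, -0.19 and -0.38. On this component model 1 lay among the sham libraries, and sham 1 lay nearest to the other model libraries. On the second, with 15.0% of the variance, model 1 was at 0.59, the other model libraries at -0.28, 0.32 and 0.26, and the sham libraries at -0.49, -0.28, 0.14 and -0.26. There model 1 lay beyond every sham library, nearest to model 3, and sham 1 lay farthest from it. Skeletal muscle transcripts separated the groups as well, at 0.239%, 0.0630%, 0.0254% and 0.0422% of reads in model 1 to 4, against 1.19%, 4.90%, 0.318% and 4.29% in sham 1 to 4. Results are therefore given with all 8 libraries and without model 1. Model 1 was set aside because of its values, so the fit without it is a description of where that library matters and no independent support. Sham 1 was left out in turn too, with the other libraries.

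With all 8 libraries 0 genes passed an adjusted p of 0.05 in limma, a background of 0.0%, and the smallest adjusted p was 0.203. At an unadjusted p under 0.05, 1192 genes were higher (5.9%) and 1426 were lower (7.06%). edgeR on the recovered reads called 0 genes and had 2873 at an unadjusted p under 0.05, while DESeq2 on the same reads called 604, of which 255 were higher (1.26%) and 349 lower (1.73%). Leaving out model 1 gave 64 higher genes (0.317%) and 105 lower genes (0.52%) past the adjusted threshold, and edgeR without that library called 0. A fold change below is a difference of group means on the log2(normalised value + 1) scale, ± the SE of the limma fit, and positive where model was higher. Values per library are normalised read values, and "p under 0.05" without further words means an unadjusted limma p, read against the shares of all tested genes. Those shares were 5.9% higher and 7.06% lower with all 8 libraries, and 13.5% and 10.3% without model 1. Over the fits that left out 1 library, 666 to 2724 of all genes were higher and 934 to 2072 lower. Part of a change in a list's count between fits can therefore be a change shared by all genes.

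Antiviral effector genes of the interferon response were higher, by their median, in all 4 model libraries, model 1 included. Of 42 tested effectors 15 were higher at p under 0.05 and 0 were lower, and the median log2 fold change was 0.34, against 0.0286 over all tested genes. In 13 of the 42 every model library lay above every sham library, a pattern found in 3.08% of all tested genes, and 0 showed the reverse, which 4.77% of all genes did. A fold change of any size was positive in 33 (52.6% of all genes) and negative in 9 (47.4% of all genes). Without model 1 the effector median was 0.33, with 15 higher (13.5% of all genes) and 1 lower (10.3% of all genes). The 15 genes with all libraries were Dtx3l, Parp14, Ifi44l, Herc6, Ddx60, Parp9, Mx1, Mx2, Rtp4, Ifi44, Parp12, Sp100, Eif2ak2, Znfx1 and Usp18. For 12 of them p stayed under 0.05 in each fit that left out 1 library. The lists and their members were drawn up with earlier results of these data known.

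Promoters are shown for some higher genes as examples, and all of these carry the motif of the interferon response. The motif is a stretch of letters that can be looked for. Irgm is from the interferon-gamma list. Herc6, Parp9, Mx1, Sp100 and Znfx1, effectors also higher at p under 0.05, had 0 matches in the same window and are not shown. Each window runs from 250 bases before to 50 bases after the RefSeq start in GRCr8, 5′ to 3′ on the strand of the gene. Capitals mark GAAANNGAAA, or TTTCNNTTTC where it lies on the other strand. Dtx3l (chr11:78319975-78320274, plus strand), Parp14 (chr11:78407884-78408183, plus strand), Ifi44l (chr2:243328473-243328772, plus strand) and Irgm (chr10:33742529-33742828, minus strand) read as follows.
Dtx3l: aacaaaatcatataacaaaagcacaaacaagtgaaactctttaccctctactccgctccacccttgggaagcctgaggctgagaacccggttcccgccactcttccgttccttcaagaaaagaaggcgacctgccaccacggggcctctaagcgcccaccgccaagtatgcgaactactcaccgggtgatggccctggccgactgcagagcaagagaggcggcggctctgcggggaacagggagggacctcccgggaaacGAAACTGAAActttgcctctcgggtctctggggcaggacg
Parp14: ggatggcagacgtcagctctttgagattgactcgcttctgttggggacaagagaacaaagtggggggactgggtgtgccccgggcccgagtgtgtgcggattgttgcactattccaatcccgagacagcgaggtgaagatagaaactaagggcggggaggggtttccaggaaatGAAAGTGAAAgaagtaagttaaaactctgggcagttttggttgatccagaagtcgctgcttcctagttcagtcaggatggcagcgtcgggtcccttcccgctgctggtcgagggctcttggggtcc
Ifi44l: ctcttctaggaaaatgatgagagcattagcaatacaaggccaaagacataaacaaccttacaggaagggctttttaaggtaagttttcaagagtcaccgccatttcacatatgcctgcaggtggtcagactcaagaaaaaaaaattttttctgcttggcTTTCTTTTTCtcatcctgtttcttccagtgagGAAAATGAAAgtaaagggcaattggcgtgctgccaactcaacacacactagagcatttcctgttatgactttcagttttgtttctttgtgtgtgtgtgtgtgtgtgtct
Irgm: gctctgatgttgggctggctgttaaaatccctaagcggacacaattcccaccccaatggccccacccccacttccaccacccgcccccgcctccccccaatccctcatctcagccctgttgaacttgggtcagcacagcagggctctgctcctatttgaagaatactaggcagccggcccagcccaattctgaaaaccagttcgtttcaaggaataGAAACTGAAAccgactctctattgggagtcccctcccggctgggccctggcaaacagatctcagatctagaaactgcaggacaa
The first base of the motif lay at position 10 relative to the start in Dtx3l, -76 in Parp14, -91 and -59 in Ifi44l and -34 in Irgm. Both strands were searched, and overlapping matches were counted once per promoter. At least 1 match was present in 21 of 34 effector promoters found in the RefSeq table (61.8%), in 3 of 13 promoters of interferon sensing genes (23.1%), in 11 of 19 promoters of interferon-gamma response genes (57.9%) and in 1312 of 33469 promoters in all (3.92%). Among effectors, the match was present in 7 of 12 promoters of genes with p under 0.05 (58.3%) and in 14 of 22 of the others (63.6%). A match is a description of the letters and not a measured binding site.

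Dtx3l, a ubiquitin ligase that works as a partner of Parp9, had the smallest p of all named genes (ENSRNOG00000023400, chromosome 11, 64814926 to 64824538 in mRatBN7.2). Its normalised value was 839, 919, 753 and 911 in model 1 to 4, against 317, 402, 486 and 387 in sham 1 to 4. Every model library was above every sham library. The log2 fold change was 1.11 ± 0.155 with all libraries (limma adjusted p = 0.203) and 1.12 ± 0.175 without model 1 (adjusted p = 0.0352), the 1 effector past the adjusted threshold in that fit. Parp9, an ADP-ribosyltransferase family member, was at 1259, 1445, 1169 and 1434 in model 1 to 4, against 718, 718, 1045 and 726 in sham 1 to 4, with a log2 fold change of 0.74 ± 0.158. The gene models of Parp9 and Dtx3l overlap by 530 bases on opposite strands in mRatBN7.2, and whether reads were counted by strand is not given, so those in the overlap cannot be assigned to one of them.

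Parp14, which adds single ADP-ribose units to proteins, lies in the same region of chromosome 11 (ENSRNOG00000023334, chromosome 11, 64902785 to 64934916 in mRatBN7.2). Its value was 1499, 1861, 1665 and 1579 in model 1 to 4, against 1035, 926, 1111 and 1123 in sham 1 to 4. Model and sham did not overlap, and the log2 fold change was 0.65 ± 0.123 (adjusted p = 0.203), or 0.70 ± 0.133 without model 1. Ifi44l, an interferon-induced gene of the antiviral state, was at 221, 181, 231 and 225 in model 1 to 4, against 117, 50.5, 71.7 and 91.4 in sham 1 to 4. No model library overlapped sham, and the log2 fold change was 1.43 ± 0.271, or 1.41 ± 0.306 without model 1. Herc6, which in mouse attaches the ubiquitin-like Isg15 to proteins, was at 377, 537, 409.8 and 307 in model 1 to 4, against 124, 140.0, 198 and 217 in sham 1 to 4. Model 2 was highest, and the log2 fold change was 1.27 ± 0.245. Ddx60, a helicase linked to viral RNA sensing, was at 158, 149.9, 167 and 117 in model 1 to 4, against 82.0, 61.2, 72.7 and 79.6 in sham 1 to 4. No model library fell within the sham range there, and the log2 fold change was 0.99 ± 0.211.

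Mx1 and Mx2 are dynamin-like GTPases that block viral replication, and as close relatives their reads may be divided between them with some error. Mx1 was at 320.4, 353, 444 and 315 in model 1 to 4, against 178, 219, 174 and 291 in sham 1 to 4. All model libraries were above sham, by 0.75 ± 0.210. Mx2 was at 173, 361, 494 and 168 in model 1 to 4, against 83.9, 71.0, 69.8 and 176 in sham 1 to 4. Model 1 and 4 lay just under the highest sham library and model 2 and 3 far above it, and the log2 fold change was 1.53 ± 0.435. Other well-known effectors did not reach p under 0.05. Ifit1, which binds viral RNA ends, was at 2324, 1566, 1421 and 604 in model 1 to 4, against 722, 1117, 1139 and 1456 in sham 1 to 4. Rsad2, viperin, was at 7305, 2371, 4092 and 2621 in model 1 to 4, against 1701, 3011, 2465 and 4357 in sham 1 to 4. In both, model 1 was the highest of the 8 libraries, and the groups overlapped. Oas3, a maker of the second messenger that activates RNase L, was at 189, 137, 396 and 469 in model 1 to 4, against 432, 300.3, 646 and 464 in sham 1 to 4, with a log2 fold change of -0.75 ± 0.409.

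**Figure D1:**
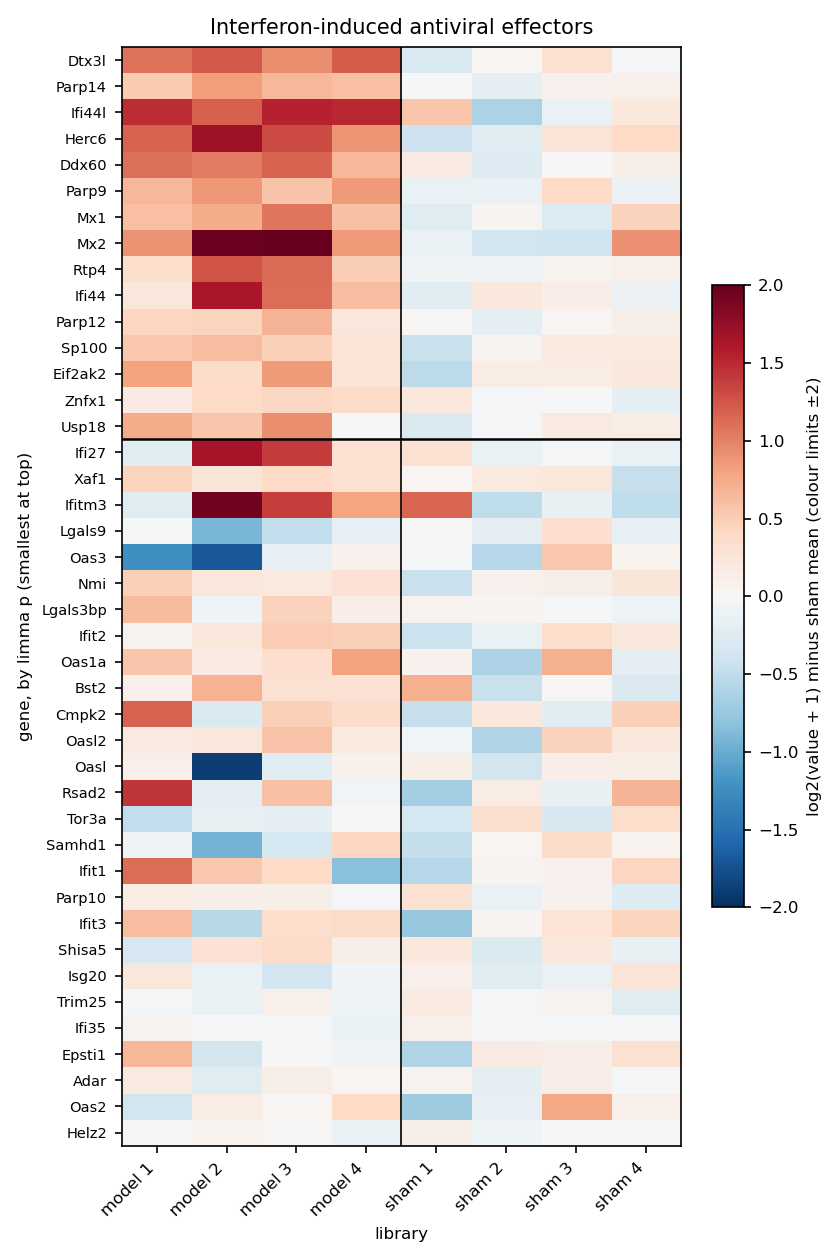
Each row is an antiviral effector gene, ordered by limma p from the top, and each column a library, model 1 to 4 and then sham 1 to 4. Colour is log2(value + 1) minus the sham mean of that gene, limited to 2 in either direction, and the horizontal line divides the 15 genes with p under 0.05 from the other 27. Above the line the model columns are mostly red, model 1 included.

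Among 18 genes of interferon sensing and signalling the median log2 fold change was 0.14, with 4 higher at p under 0.05 and 0 lower. Dhx58, a regulator of the RNA sensors of the cytoplasm, was at 219, 227, 227 and 178 in model 1 to 4, against 165, 108, 135 and 129 in sham 1 to 4. The groups did not overlap, and the log2 fold change was 0.67 ± 0.194. Irf7, the transcription factor that amplifies type I interferon production, was at 1827, 1754, 1818 and 1216 in model 1 to 4, against 792, 879.6, 1287 and 1328 in sham 1 to 4. Model 4 lay within the sham range while the other model libraries lay above it, and the log2 fold change was 0.64 ± 0.216. Tlr3, a receptor for double-stranded RNA, differed by 0.70 ± 0.248 and Ifnar2, a chain of the interferon receptor, by 0.29 ± 0.121. Without model 1, Zbp1, a nucleic acid sensor, was the 1 gene of this list lower at p under 0.05, at -1.24 ± 0.438, with 3 higher.

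Of 21 genes of the interferon-gamma response and antigen processing, 3 were higher (5.9% of all genes) and 2 lower (7.06% of all genes) at p under 0.05. The count of lower genes was near the share of all genes. The list's median was 0.05. It had the other sign, at -0.0040, when libraries were scaled to reads outside muscle genes, and at -0.06 without sham 2. Irgm, an immunity-related GTPase (ENSRNOG00000031138, chromosome 10, 33233455 to 33241578 in mRatBN7.2), was at 205, 342, 301 and 274 in model 1 to 4, against 122, 161, 155 and 139 in sham 1 to 4. All model libraries lay above sham, with a log2 fold change of 0.94 ± 0.204 (adjusted p = 0.203) and 1.08 ± 0.189 without model 1 (adjusted p = 0.0471). Irgm has close relatives, among them Igtp, whose reads may be shared with it. Igtp was at 669, 705, 810.4 and 598 in model 1 to 4, against 576, 511, 484 and 555 in sham 1 to 4, a log2 fold change of 0.38 ± 0.134. Gbp2, a guanylate-binding protein, differed by 0.47 ± 0.187. The immunoproteasome subunits went the other way. Psmb8 was at 1643, 1326, 1417 and 1429.5 in model 1 to 4, against 2090.1, 1745, 2195 and 1643 in sham 1 to 4, a log2 fold change of -0.39 ± 0.138, and Psmb9 differed by -0.47 ± 0.181.

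Skeletal muscle transcripts separated the same groups, and their part in the interferon result was not tested. Model 1 and sham 3 had the closest muscle shares of the 2 groups, 0.239% and 0.318%. The median distance of the effectors from the sham mean was 0.39 in model 1 and 0.11 in sham 3. Without sham 2 and sham 4, the libraries richest in muscle transcripts, 10 effectors were higher at p under 0.05 and 0 lower, with a median of 0.39, while over all genes 713 were higher and 745 lower in that fit of 6 libraries.

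Matrix genes showed a different pattern of libraries. By their list medians, collagens, glycoproteins and proteoglycans, proteases and their inhibitors were higher in model 2, 3 and 4 than in sham 2, 3 and 4, while the median of model 1 lay within or below the sham range and that of sham 1 above the other sham libraries. Single genes departed from this, among them Lum, Ctsb, Col8a1 and Mmp12, in which model 1 was above sham. For non-fibrillar collagens the median log2 distance from the sham mean was -0.51, 2.59, 2.08 and 1.34 in model 1 to 4, against 0.89, -0.40, 0.16 and -0.38 in sham 1 to 4. For matrix glycoproteins and proteoglycans it was -0.30, 1.68, 1.62 and 0.38 in model 1 to 4, against 0.75, -0.19, 0.15 and -0.61 in sham 1 to 4. In both lists sham 1 was higher than model 1, and in the second also higher than model 4, so the groups overlapped.

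**Figure D2:**
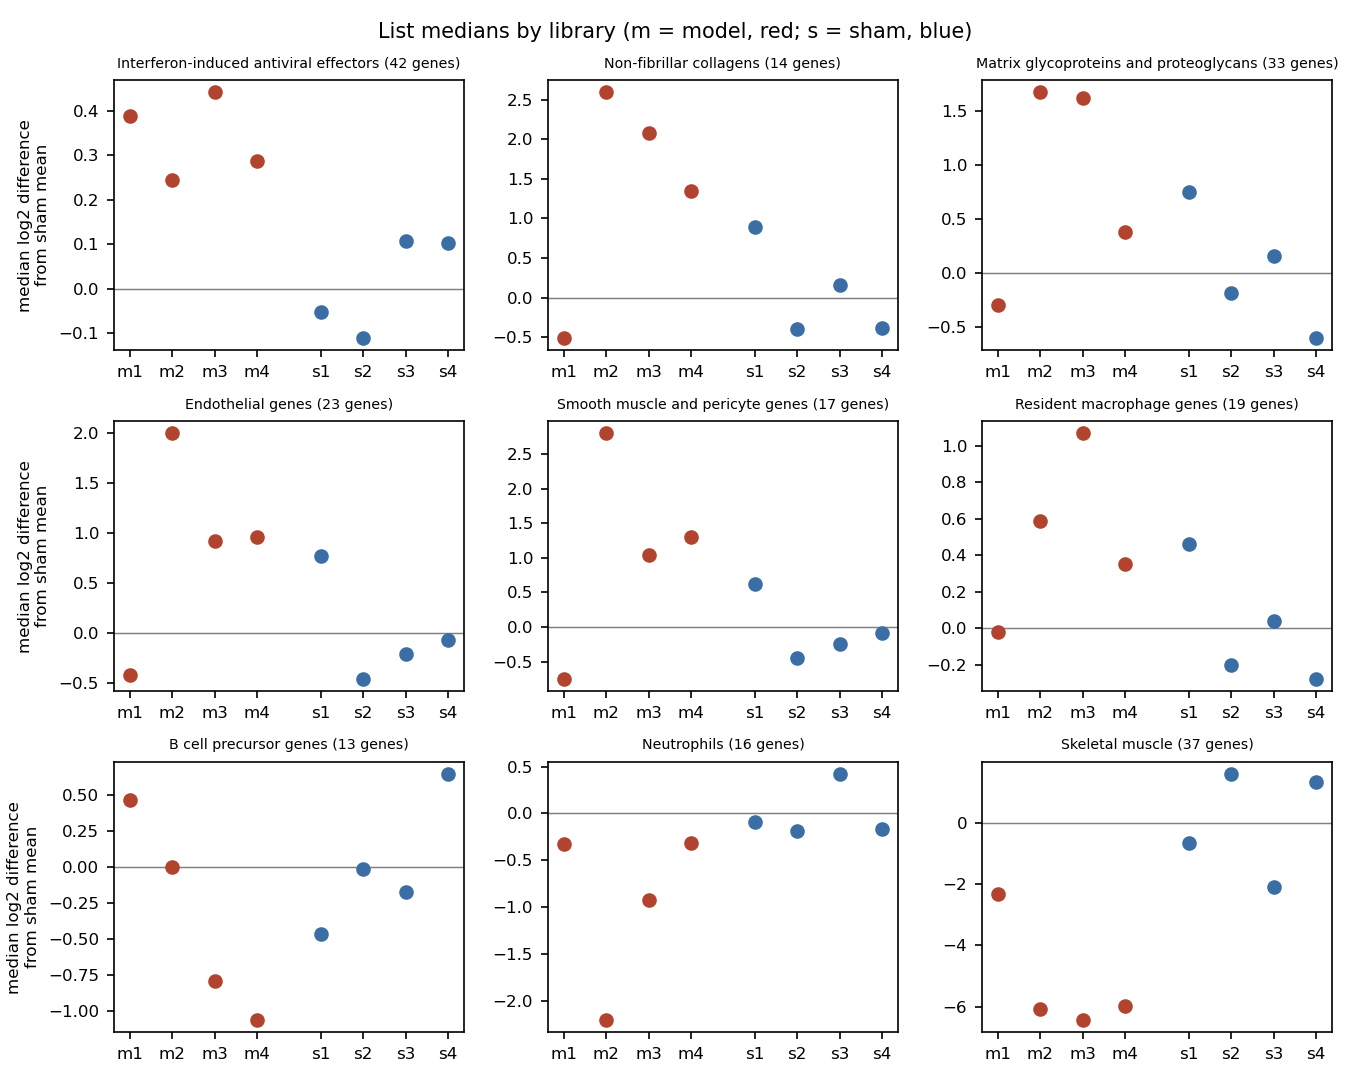
Each panel is a gene list and each point a library, with model 1 to 4 (m, red) left of sham 1 to 4 (s, blue). The vertical axis is the median over the list's genes of log2(value + 1) minus the sham mean. Antiviral effectors are higher in all 4 model libraries, from 0.24 to 0.44, than in sham, from -0.11 to 0.11, while in the collagen, glycoprotein, endothelial and smooth muscle panels model 1 lies below sham 1.

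Of 11 fibrillar collagen genes 3 were higher at p under 0.05, the type V chains Col5a1, Col5a2 and Col5a3, and the median was 0.48. The count was 1 to 5 in the fits that left out 1 library, with 4 without model 1, 5 without sham 1, and 1 without model 3, sham 2, sham 3 or sham 4. Type V collagen sets the width of collagen fibrils. Col5a2 was at 5650.3, 13694, 15884 and 7353 in model 1 to 4, against 5824, 4989, 3923 and 4995 in sham 1 to 4. Model 2, 3 and 4 were above all sham libraries and model 1 was within the sham range. Its log2 fold change was 1.0 ± 0.324, and 1.26 ± 0.270 without model 1 (adjusted p = 0.0693). Col1a1, the main chain of bone and tendon collagen, was at 153281, 127173, 122413 and 151985 in model 1 to 4, against 172759, 121609, 56295 and 105363 in sham 1 to 4, and the groups overlapped. Col2a1, the chain of cartilage collagen, was at 31782, 359, 32680.2 and 13900.1 in model 1 to 4, against 20476, 22011, 8689 and 20898 in sham 1 to 4. Model 2 was far below all other libraries there, the library that also had the lowest share of chondrocyte markers.

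Of 14 non-fibrillar collagens 6 were higher at p under 0.05 with all libraries, and 12 without model 1. Col8a1, a short-chain collagen of vessel walls and the matrix around them (ENSRNOG00000039668, chromosome 11, 42777628 to 42906424 in mRatBN7.2), was at 284, 705, 843 and 709 in model 1 to 4, against 236, 191, 231 and 166 in sham 1 to 4. The groups did not overlap although model 1 was close to sham. Its log2 fold change was 1.52 ± 0.327 with all libraries (adjusted p = 0.203) and 1.87 ± 0.179 without model 1 (adjusted p = 0.0107). Col12a1, which links fibrils to their surroundings, was at 1381, 5560.1, 5697 and 4155 in model 1 to 4, against 2488, 1513, 1521 and 1122 in sham 1 to 4. Model 1 was within the sham range, and the log2 fold change was 1.21 ± 0.450, or 1.68 ± 0.261 without model 1 (adjusted p = 0.0352). Col4a1, a chain of the basement membrane, was at 2033, 42837, 16099.6 and 10417 in model 1 to 4, against 6371, 1752, 2962 and 2402 in sham 1 to 4. Model 2 was highest and model 1 lower than sham 1, 3 and 4, with a log2 fold change of 1.88 ± 0.823. Of the list, Col8a1 alone had p under 0.05 in each fit that left out 1 library.

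Enzymes that build collagen were higher by a median of 0.68 over 23 genes, with 5 at p under 0.05 and 0 lower, and without model 1 the median was 0.92, with 18 higher. Plod2, which hydroxylates lysines for cross-links, was at 4503, 3671, 7046 and 3987 in model 1 to 4, against 2327, 2929, 1790.1 and 2652 in sham 1 to 4. Here model 1 was above all sham libraries, like the other model libraries, and the log2 fold change was 0.96 ± 0.234, or 0.98 ± 0.261 without model 1. P4ha1, a chain of prolyl hydroxylase, was at 1098, 1240.4, 1718 and 1327 in model 1 to 4, against 943, 905, 944 and 1047 in sham 1 to 4. All model libraries exceeded sham, and the log2 fold change was 0.47 ± 0.152. Both genes had p under 0.05 in each fit that left out 1 library.

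Among 33 matrix glycoproteins and proteoglycans 4 were higher at p under 0.05 with all libraries, Lum, Ogn, Bgn and Comp, and 20 were without model 1, with 1 lower, Spp1. Lum, lumican, a small leucine-rich proteoglycan that organises fibrils (ENSRNOG00000004610, chromosome 7, 32358614 to 32365793 in mRatBN7.2), was at 4141, 11997, 19259.8 and 7803 in model 1 to 4, against 3050.3, 3168, 3316 and 3329 in sham 1 to 4. All model libraries were above sham, model 1 by the least. Its log2 fold change was 1.53 ± 0.40 (adjusted p = 0.253), and 1.92 ± 0.270 without model 1 (adjusted p = 0.0248). Ogn, osteoglycin, was at 2020.0, 8824, 5841 and 4215 in model 1 to 4, against 1546, 1604, 2123 and 1491 in sham 1 to 4. Only model 1 lay within the sham range, and the log2 fold change was 1.45 ± 0.393, or 1.84 ± 0.251 without model 1 (adjusted p = 0.0239). Bgn, biglycan, was at 6111, 29116, 19166 and 13992 in model 1 to 4, against 7953, 5175, 7169 and 5476 in sham 1 to 4. It too had model 1 within the sham range, with 1.22 ± 0.423, and 1.65 ± 0.268 without model 1 (adjusted p = 0.0397). Acan, the large proteoglycan of cartilage, was at 2489, 565, 3553 and 2249 in model 1 to 4, against 1526, 1099, 776 and 1336 in sham 1 to 4, and did not reach p under 0.05. Prg4, lubricin of the synovial lining and cartilage surface, was at 6870.4, 65362, 65335 and 3069 in model 1 to 4, against 13870.0, 1946, 2431 and 2409.7 in sham 1 to 4. Model 2 and 3 stood far above the rest, and the groups overlapped.

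Matrix-degrading proteases had a median of 0.75 over 26 genes, with 7 higher at p under 0.05 and 0 lower. Without model 1, 16 were higher and 1 lower, and without sham 1, 12 were higher. The number was 3 without model 3 and 4 without model 2 or sham 2. The 7 were Ctsb, Mmp12, Mmp3, Mmp14, Adamts1, Ctss and Adamts7. Ctsb, the lysosomal protease cathepsin B, was at 13746, 24749.7, 30074 and 18094 in model 1 to 4, against 12581, 10814, 11082 and 8289 in sham 1 to 4. Each model library exceeded sham, and the log2 fold change was 0.97 ± 0.254, or 1.17 ± 0.219 without model 1. Mmp12, elastase of macrophages, was at 13.5, 103, 877 and 49.7 in model 1 to 4, against 6.53, 2.92, 11.8 and 6.88 in sham 1 to 4. Model 3 was highest by far and model 1 just above sham, with a log2 fold change of 3.62 ± 1.08. Mmp3, stromelysin, was at 305, 2852, 2868 and 196 in model 1 to 4, against 198, 83.6, 128 and 60.9 in sham 1 to 4. Model 4 fell within the sham range, and the log2 fold change was 2.96 ± 0.903.

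The collagenase and aggrecanase best known from cartilage loss did not separate the groups. Mmp13 was at 6095, 1855, 1947 and 9824 in model 1 to 4, against 3184, 1849, 2073 and 2713 in sham 1 to 4. Model 1 and 4 were above all sham libraries and model 2 and 3 were not, with a log2 fold change of 0.68 ± 0.523. Adamts5 was at 344, 1135, 719.9 and 498 in model 1 to 4, against 849, 273, 359 and 331 in sham 1 to 4, a log2 fold change of 0.59 ± 0.435. A p that misses the threshold does not show that the groups were alike.

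Protease inhibitors had a median of 0.70 over 9 genes, with 2 higher at p under 0.05, and 6 without model 1. Timp1, an inhibitor of metalloproteinases, was at 362, 1309, 1319.8 and 579 in model 1 to 4, against 497, 316, 307 and 246 in sham 1 to 4. Model 1 lay within the sham range and the other model libraries above it, with a log2 fold change of 1.23 ± 0.427, or 1.60 ± 0.340 without model 1 (adjusted p = 0.0680). Of 19 TGF-beta and activin signalling genes, with a median of 0.42, 2 receptors were higher at p under 0.05 (5.9% of all genes). Without model 1 the median was 0.69 and 10 were higher, without sham 1, 5 were, without model 3, 0 were, and without model 2, sham 2, sham 3 or sham 4, 1 was. Tgfbr1 was at 1935, 1955, 2532 and 1755 in model 1 to 4, against 1151, 1565, 1707 and 1553 in sham 1 to 4. It was above sham in all model libraries, by 0.45 ± 0.168, while Tgfbr2, at 0.68 ± 0.253, had model 1 within the sham range.

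The dependence on single libraries was read from the fits that left out 1 library each. For the collagen, glycoprotein, protease, inhibitor and TGF-beta lists, the members with p under 0.05 in all of these fits were Col5a2, Col8a1, Plod2, P4ha1, Lum, Ogn, Bgn, Ctsb, Mmp12 and Mmp3. Non-fibrillar collagens had between 1 and 12 higher members, the highest number without model 1. Without sham 1 they had 8. Without sham 2 and sham 4 the count was 1, with a median of 0.90. Synovial fibroblast markers moved in the same libraries, at 0.208%, 0.631%, 0.668% and 0.221% of reads in model 1 to 4, against 0.275%, 0.166%, 0.161% and 0.174% in sham 1 to 4. Their part in the matrix results was not tested. Of 10 such markers 1, Cdh11, the cadherin of synovial lining cells, had p under 0.05, at 1575, 1987, 2099.6 and 1894 in model 1 to 4, against 1532, 1434, 1381 and 1358 in sham 1 to 4. In Cdh11 all model libraries were above sham, by 0.40 ± 0.126.

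**Figure D3:**
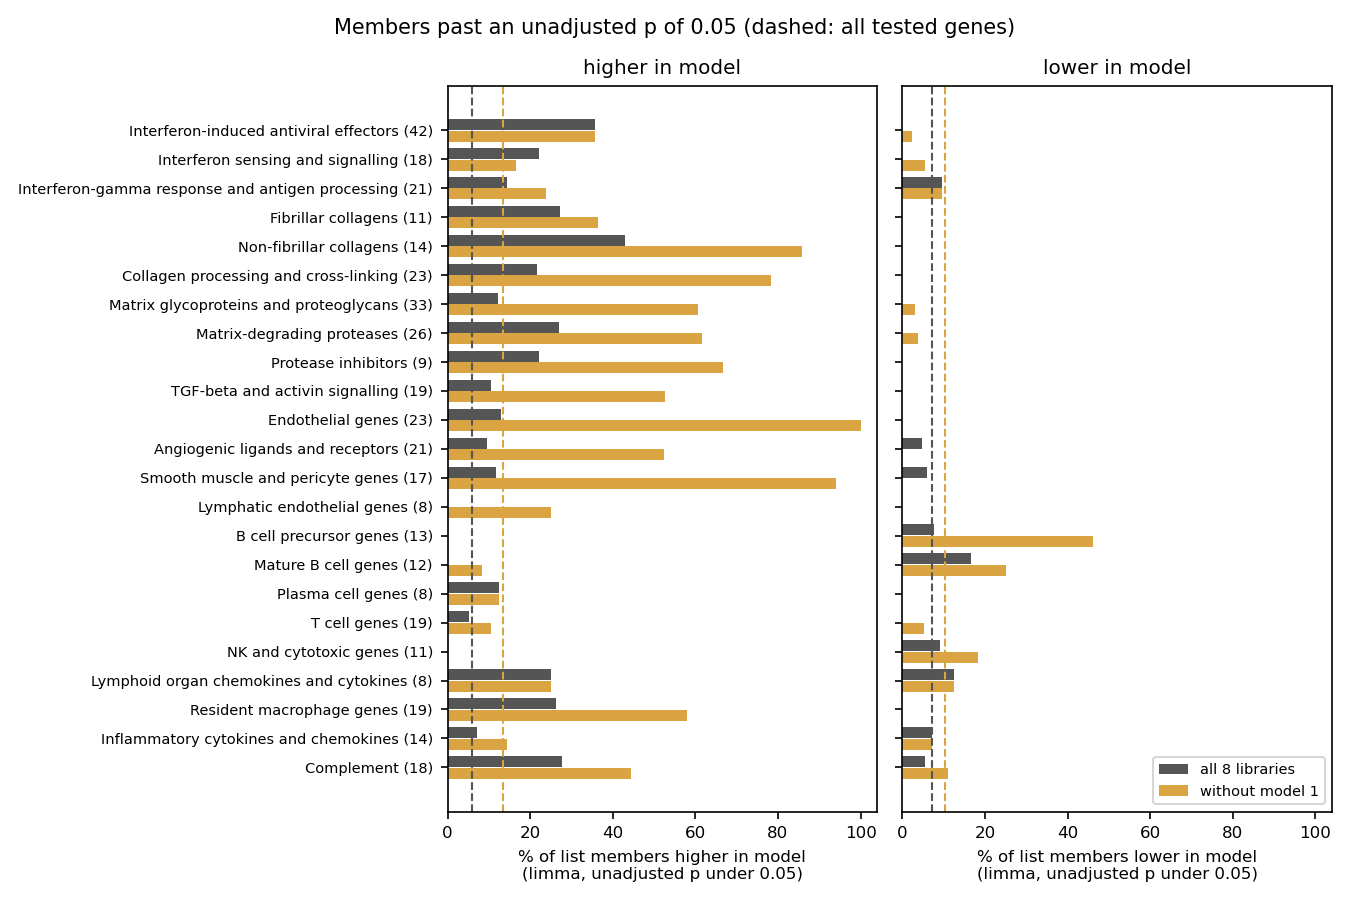
Bars give the percentage of each list's tested genes (number in brackets) that were higher in model (left) or lower in model (right) at an unadjusted limma p under 0.05, with all 8 libraries in grey and without model 1 in yellow. Dashed lines mark the share over all tested genes, 5.9% and 13.5% higher and 7.06% and 10.3% lower. The effector bars for higher genes are the same length in both fits, and those of endothelial and smooth muscle genes reach 23 of 23 and 16 of 17 in the fit without model 1.

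Markers of the other cells a joint sample can hold are given by their counts. The shares of all genes were 5.9% higher and 7.06% lower with all libraries, and 13.5% and 10.3% without model 1. In lists this short, counts of 1 or 2 are near those shares. Of 10 adipocyte markers 0 reached p under 0.05 with all libraries and 2 were higher without model 1, with medians of 0.45 and 1.11. Of 7 tendon markers 1 was higher with all libraries and 2 without model 1, with medians of 0.53 and 0.86. Of 14 red cell precursor markers 0 reached p under 0.05 in either fit, and the median was 0.23, or -0.13 without model 1. Of 12 chondrocyte markers 0 did, with medians of -0.16 and -0.63. Of 11 osteoblast and osteocyte markers 0 did with all libraries and 2 were lower without model 1, and of 8 osteoclast markers 0 and 1 lower. Of 5 skin keratinocyte markers 1 was lower with all libraries and 1 higher without model 1.

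The vessel results depended on single libraries, and most genes were called without model 1. Of 23 endothelial genes 3 were higher at p under 0.05 with all libraries, Emcn, Kdr and S1pr1, and 0 had groups that did not overlap. Without model 1 all 23 were higher at p under 0.05 (13.5% of all genes), the median was 1.32 in place of 0.79, and 0 passed the adjusted threshold. In 14 of them model 2, 3 and 4 were all above sham, as in 10.6% of all genes. Per library the endothelial median from the sham mean was -0.41, 2.0, 0.92 and 0.97 in model 1 to 4, against 0.77, -0.46, -0.21 and -0.07 in sham 1 to 4. Over the fits that left out 1 library, the count of higher endothelial genes was 0 to 23, with 666 to 2724 over all genes. In all of these fits together, 0 endothelial genes kept p under 0.05. Leaving out sham 1 in place of model 1 gave 7 higher genes, and leaving out both sham 2 and sham 4 gave 0. Over all genes, 1458 had p under 0.05 in either direction without sham 2 and sham 4, against 2618 with every library. Schwann cell markers, which myelinating nerve sheaths make, followed the same libraries, at a median of -0.73, 1.75, 0.33 and 1.12 in model 1 to 4, against 0.93, -0.40, 0.08 and -0.52 in sham 1 to 4. Their part in the vessel results was not tested.

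Emcn, endomucin of venous and capillary endothelium, was at 400.5, 1467, 746 and 773 in model 1 to 4, against 538, 355, 365 and 346 in sham 1 to 4. Model 1 was between sham 1 and the other sham libraries, and the log2 fold change was 0.95 ± 0.351, or 1.26 ± 0.271 without model 1. Kdr, the main receptor for vascular endothelial growth factor, was at 926, 2065, 1231 and 1346 in model 1 to 4, against 1136, 760.1, 751 and 826 in sham 1 to 4. The order of libraries was the same, with 0.64 ± 0.246. Pecam1, an adhesion protein of endothelial junctions, was at 1127, 9195, 3813 and 3577 in model 1 to 4, against 2773, 996, 1259 and 1689 in sham 1 to 4. Model 1 lay below sham 1, 3 and 4, and the log2 fold change was 1.15 ± 0.579, or 1.68 ± 0.419 without model 1 (adjusted p = 0.0849). Vegfa, the growth factor itself, was at 1297, 2071, 1461 and 1924 in model 1 to 4, against 1932, 1569.7, 1298 and 1664 in sham 1 to 4. It overlapped between the groups in either fit, with 0.05 ± 0.189.

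Of 21 angiogenic ligands and receptors, with a median of 0.59, 2 were higher and 1 lower at p under 0.05. These counts were near the shares of all genes, 5.9% higher and 7.06% lower. Without model 1, 11 were higher and 0 lower, without sham 1, 6 were higher and 0 lower, and without model 3 or sham 2, 1 was higher. Nrp1, a co-receptor of the same growth factor, was at 2038, 4151, 2772 and 2659.5 in model 1 to 4, against 1978, 1681, 1823 and 1723 in sham 1 to 4. All model libraries were above sham, model 1 by the least, and the log2 fold change was 0.64 ± 0.203, with p under 0.05 in each fit that left out 1 library. Hif1a, the transcription factor of low oxygen, differed by 0.50 ± 0.179, and Notch1, lower in model, by -0.38 ± 0.157, a call lost without model 1. Of 17 smooth muscle and pericyte genes, with a median of 1.03, 2 were higher (5.9% of all genes) and 1 lower (7.06% of all genes) with all libraries. Without model 1, 16 were higher (13.5% of all genes). Over the fits that left out 1 library the count of higher genes was 0 to 16. Pdgfrb, the receptor that holds pericytes to vessels, was at 1858, 7129, 4020.3 and 4152 in model 1 to 4, against 2986, 1582, 1744 and 1740.4 in sham 1 to 4. Sham 1 was above model 1, and the log2 fold change was 0.99 ± 0.381, or 1.34 ± 0.279 without model 1. Myh11, the myosin of smooth muscle, was at 463, 26019, 2672 and 12919 in model 1 to 4, against 2128, 502, 813 and 1280.5 in sham 1 to 4. Model 1 was the lowest and model 2 the highest of all 8 libraries, and the log2 fold change was 2.14 ± 1.12. The lower gene was Des, an intermediate filament shared with skeletal muscle, at -1.72 ± 0.686, a call also lost without model 1. Of 8 lymphatic endothelial genes, with a median of -0.04, 0 reached p under 0.05 with all libraries in limma, and 2 were higher without model 1, Nr2f2 and Pdpn.

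**Figure D4:**
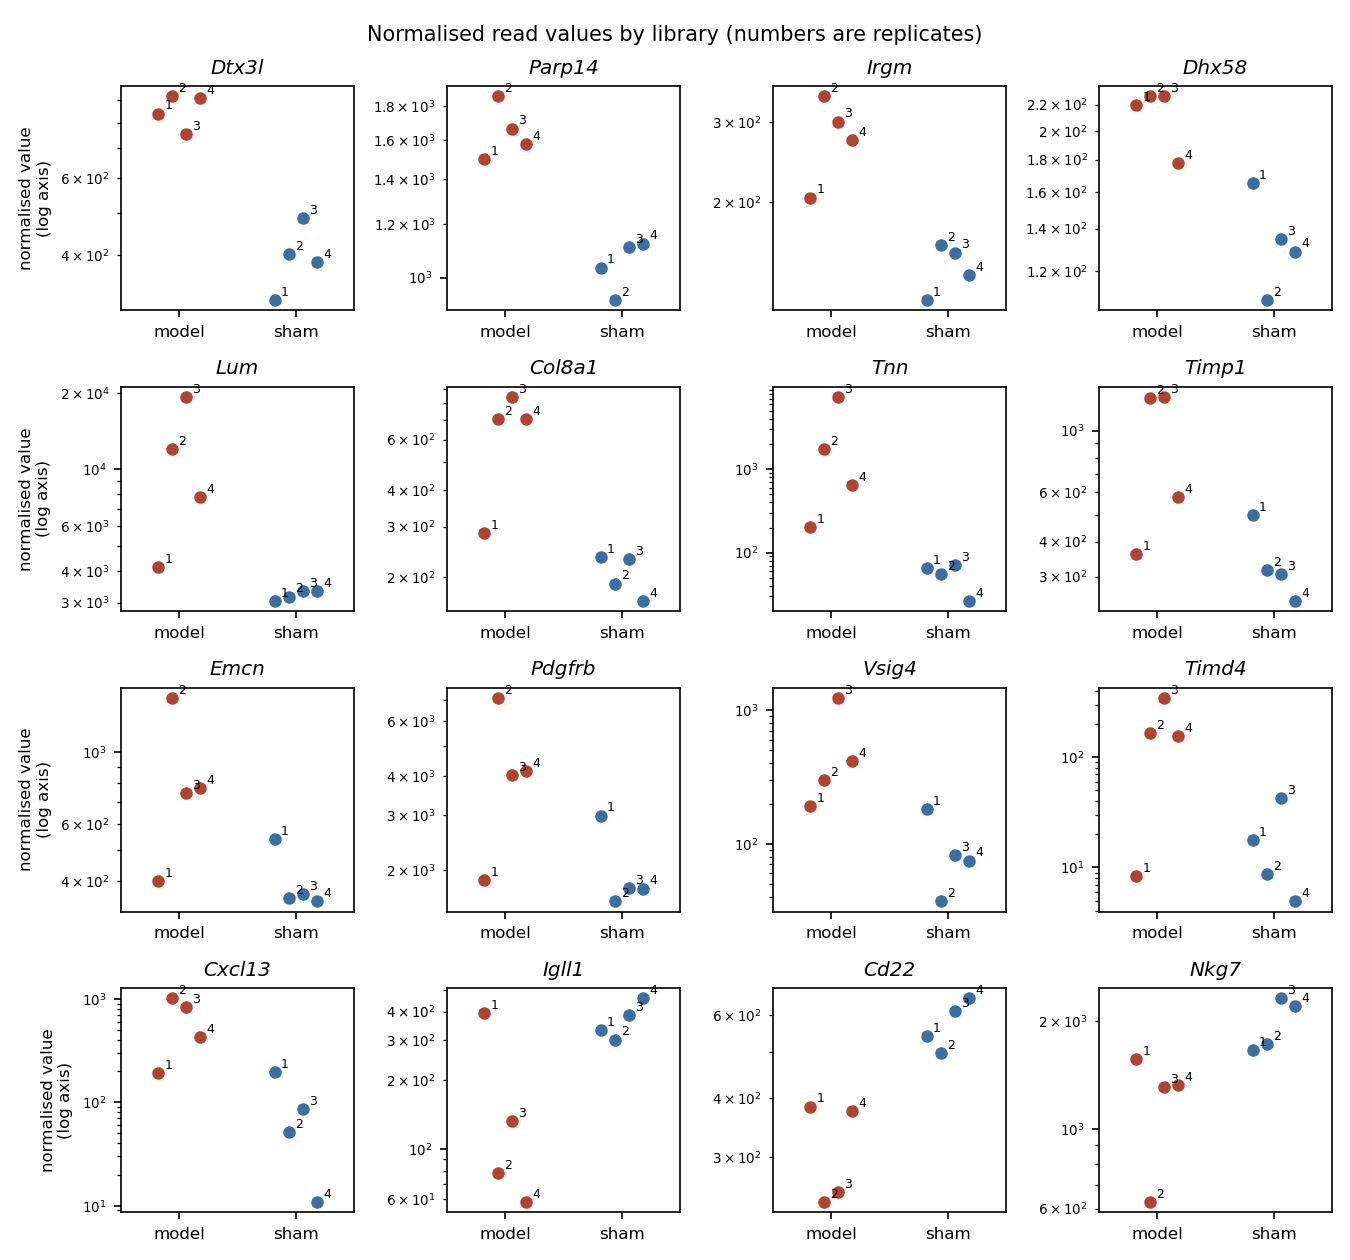
Normalised read values on a log axis for 16 genes, with model libraries (red) left of sham libraries (blue) and the replicate number beside each point. In the top row (Dtx3l, Parp14, Irgm, Dhx58) all 4 model points lie above all sham points, while in Emcn, Pdgfrb, Timp1 and Timd4 the point of model 1 lies within the sham range.

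By their list medians, macrophage and complement genes were higher in model 2 and 3 than in all sham libraries. Of 19 resident macrophage genes 5 were higher at p under 0.05, among them Vsig4, Cx3cr1, Maf and Timd4, and 0 were lower, with a median of 0.55. The list median per library was -0.02, 0.59, 1.07 and 0.35 in model 1 to 4, against 0.46, -0.20, 0.04 and -0.28 in sham 1 to 4, so model 1 and 4 lay below sham 1. The number of higher genes was 11 without model 1 and 8 without sham 1, 2 without model 4 or sham 2, 3 without sham 3, and 1 without model 3 or sham 4. Vsig4, a complement receptor of tissue macrophages, was at 190.4, 299.7, 1240.5 and 415 in model 1 to 4, against 181, 36.9, 82.5 and 74.7 in sham 1 to 4. All model libraries were above sham, and model 1 exceeded sham 1 by little. The log2 fold change was 2.35 ± 0.620, with p under 0.05 in each fit that left out 1 library. Timd4, a receptor for dying cells on resident macrophages, was at 8.32, 165, 347 and 155 in model 1 to 4, against 17.7, 8.75, 42.2 and 4.91 in sham 1 to 4. Model 1 was within the sham range and the other model libraries were all above it, with 2.70 ± 1.09, or 3.82 ± 0.661 without model 1 (adjusted p = 0.0460). Cx3cr1, a receptor of lining macrophages in the mouse joint, differed by 0.73 ± 0.272.

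Of 18 complement genes 5 were higher and 1 lower, with a median of 0.75. Without model 1, 8 were higher and 2 lower, and without sham 1, 8 higher and 0 lower. Without model 3, sham 2 or sham 4, 2 were higher and 0 lower, and without sham 3, 3 were higher and 0 lower. C7 bears the name of a part of the membrane attack complex, and the authors' annotation labels this entry a pseudogene. It was at 1833, 3561, 3161 and 2161 in model 1 to 4, against 2057, 1054, 1258 and 1085 in sham 1 to 4. Model 1 was below sham 1, and the log2 fold change was 0.98 ± 0.277. C1s, the protease of the first component, differed by 1.79 ± 0.753. C3, the central component, was the lower gene, at 4968, 1540.2, 4119 and 5455 in model 1 to 4, against 6368, 6798, 8205 and 5491 in sham 1 to 4. Each model library was below sham, and the log2 fold change was -0.88 ± 0.371. Among 14 inflammatory cytokines and chemokines, with a median of -0.39, 1 was higher, Ccl7 at 2.75 ± 1.02, and 1 lower, Ptgs2. Both counts were near the shares of all genes, 5.9% higher and 7.06% lower. Ptgs2, the inducible cyclooxygenase, was at 61.4, 25.3, 56.9 and 59.2 in model 1 to 4, against 66.2, 91.4, 106 and 106 in sham 1 to 4. Ptgs2 was lower in every model library, with a log2 fold change of -0.91 ± 0.340. Il1b was at 325, 115, 196 and 318 in model 1 to 4, against 292, 276, 242 and 313 in sham 1 to 4, and overlapped between the groups.

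Neutrophil markers were lower in model by a median of -0.93 over 16 genes, with 12 lower at p under 0.05 and 0 higher. They made up 1.56%, 0.439%, 1.04% and 1.62% of reads in model 1 to 4, against 1.90%, 1.77%, 2.78% and 1.65% in sham 1 to 4. Model 2 was lowest. The number of lower markers was 2 to 14 over the fits that left out 1 library, with 2 without sham 1 and 2 without sham 3. C3 and Ptgs2 are also made by myeloid cells, and the part of neutrophil content in their values was not tested.

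Lymphoid genes differed in few members. Of 13 B cell precursor genes 1 was lower at p under 0.05, near the share of all genes (7.06%), and 0 were higher. The list's median of -0.25 turned to 0.15 without sham 2 and sham 4. Igll1, a part of the surrogate light chain of early B cells, was at 393, 78.0, 132 and 58.3 in model 1 to 4, against 331, 301, 387 and 457 in sham 1 to 4. Model 1 lay within the sham range and the other model libraries below it, with -1.55 ± 0.522, or -2.10 ± 0.297 without model 1 (adjusted p = 0.0255). Dntt, which adds bases to antigen receptor joints, was at 447, 30.4, 146 and 147 in model 1 to 4, against 312, 267, 447 and 560.2 in sham 1 to 4. The order was the same, with -1.53 ± 0.688. Without model 1, 6 of the 13 were lower at p under 0.05 (10.3% of all genes) and 0 higher.

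Of 12 mature B cell genes, with a median of -0.38, 2 were lower, and both held model 1 below sham. Cd22, an inhibitory receptor of B cells, was at 384, 241, 253 and 375 in model 1 to 4, against 541, 498, 611 and 649.6 in sham 1 to 4. The groups did not overlap, and the log2 fold change was -0.90 ± 0.196 (adjusted p = 0.203), or -1.01 ± 0.197 without model 1 (adjusted p = 0.0603). Cd37, a tetraspanin of B cells, was at 2732, 1620.1, 1762 and 2477 in model 1 to 4, against 3197, 2986, 3734 and 3801 in sham 1 to 4. It was lower in every model library, with a log2 fold change of -0.70 ± 0.193. Ms4a1, the B cell surface gene for CD20, was at 448, 287, 249 and 265 in model 1 to 4, against 174, 296, 299 and 649.6 in sham 1 to 4, and overlapped.

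The 8 chemokines and cytokines of lymphoid organs had a median of -0.10, which turned to 0.12 without model 1, with 2 higher and 1 lower at p under 0.05 in either fit. Cxcl13, which attracts B cells, was at 190.4, 1011, 834 and 426 in model 1 to 4, against 195, 51.5, 85.5 and 10.8 in sham 1 to 4. Model 1 was close to sham 1 and the other model libraries were above all sham libraries, with 3.17 ± 0.839, or 3.64 ± 0.828 without model 1. Ccl19, which attracts T cells and dendritic cells, was at 35.4, 48.6, 4.07 and 10.5 in model 1 to 4, against 0, 2.92, 2.95 and 0 in sham 1 to 4. All model libraries were above sham, but the gene had 6 reads in all sham libraries together, so its log2 fold change of 3.18 ± 0.849 rests on few reads and on the pseudocount. Both had p under 0.05 in each fit that left out 1 library. Ltb, lymphotoxin beta, was lower, at -0.89 ± 0.313.

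Of 19 T cell genes 1 was higher, Icos, a costimulatory receptor, at 26.0, 37.5, 44.7 and 35.3 in model 1 to 4, against 13.1, 27.2, 19.6 and 23.6 in sham 1 to 4. Of 11 NK and cytotoxic genes 1 was lower, Nkg7, a granule protein, at 1563, 625, 1309.6 and 1328 in model 1 to 4, against 1662, 1719, 2311 and 2194 in sham 1 to 4. Nkg7 was lower in every model library, with a log2 fold change of -0.77 ± 0.278. Of 8 plasma cell genes 1 was higher, Sdc1, a proteoglycan that other cells make too, at 665, 1251, 903 and 1022 in model 1 to 4, against 672, 492, 486 and 529.7 in sham 1 to 4, a log2 fold change of 0.79 ± 0.204. The NK and cytotoxic list had a median of -0.43, and -0.01 without model 1. The plasma cell median was -0.11, and turned to 0.20 without model 2. The T cell median was 0.06, and ranged from -0.10 to 0.16 over the fits that left out 1 library. The T cell count was near the share of all genes (5.9% higher), and the NK and cytotoxic count near the share of all genes that were lower (7.06%).

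The 169 genes past the adjusted threshold without model 1 were read gene by gene in model 1. They were chosen with the other model libraries and the same sham libraries, so the counts describe them and are no independent support. Of the 64 higher genes, 23 had all 4 model libraries above sham (3.08% of all genes). Model 1 was within the sham range in 30 and below sham in 11, and 57 had p under 0.05 with all 8 libraries (5.9% of all genes). Of the 105 lower genes, 79 had all 4 model libraries below sham (4.77% of all genes). Model 1 was within the sham range in 25 and above sham in 1, and all 105 had p under 0.05 with 8 libraries (7.06% of all genes). Skeletal muscle list members made up 23 of the lower genes and 0 of the higher genes. The authors' deposited table of changed genes held 42 of the 64 and 70 of the 105. Of all 20205 tested genes, 431 higher and 617 lower genes had p under 0.05 with 8 libraries and in each fit that left out 1 library.

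Tnn, tenascin-N, a matrix glycoprotein known from bone, had the largest positive log2 fold change without model 1 among the genes named by rule. Its value was 203, 1754, 7369 and 651 in model 1 to 4, against 65.3, 55.4, 71.7 and 26.5 in sham 1 to 4. All model libraries were above sham, with model 3 highest, and the log2 fold change was 4.45 ± 0.943, or 5.28 ± 0.728 without model 1 (adjusted p = 0.0239). Ccn5, a secreted matricellular protein, was at 251, 2998, 2511 and 739 in model 1 to 4, against 247, 66.1, 141 and 90.4 in sham 1 to 4. Model 1 exceeded sham 1 by little, and the log2 fold change was 3.17 ± 0.769, or 3.87 ± 0.567 without model 1 (adjusted p = 0.0303). Megf6, a protein with repeats like epidermal growth factor, was at 56.2, 1173, 1418 and 567 in model 1 to 4, against 137, 27.2, 155 and 56.0 in sham 1 to 4. Model 1 was within the sham range, and the log2 fold change was 2.65 ± 1.0. Clec2dl1, a lectin-like gene with close relatives, was at 88.4, 597, 696 and 143 in model 1 to 4, against 58.7, 24.3, 27.5 and 29.5 in sham 1 to 4. Its groups did not overlap, with 3.0 ± 0.670. Ccl9, Gabra2 and Shisal1 were higher in model 2, 3 and 4, while model 1 was below all sham libraries. Ccl9, a chemokine of myeloid cells in mouse, was at 2.08, 73.9, 243 and 37.2 in model 1 to 4, against 4.66, 5.83, 9.82 and 6.88 in sham 1 to 4.

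Genes outside the lists with small p in all 8 libraries included Cttnbp2nl, at 563, 1003, 875 and 634 in model 1 to 4, against 413, 294, 329 and 306 in sham 1 to 4, with a log2 fold change of 1.17 ± 0.211 (adjusted p = 0.203) and 1.31 ± 0.201 without model 1 (adjusted p = 0.0346). Ppp1r13b, a regulator of p53, was at 1053, 1262, 934 and 978 in model 1 to 4, against 649, 635, 645 and 678 in sham 1 to 4. It had a narrow spread in sham and no overlap, with 0.69 ± 0.126. Dhrs7l1 was at 19.8, 12.2, 18.3 and 57.3 in model 1 to 4, against 1.86, 1.94, 0 and 0.983 in sham 1 to 4. It had 5 reads in all sham libraries together, so its fold change is not given. On the lower side Nudt3, which breaks down inositol pyrophosphates, was at 1460.4, 1368, 1329 and 1357 in model 1 to 4, against 2067, 2357, 2009 and 2257 in sham 1 to 4. Its groups were narrow and did not overlap, with -0.65 ± 0.110 (adjusted p = 0.203), or -0.68 ± 0.122 without model 1.

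Most other lower genes named by rule belong to striated muscle though they were not on the muscle list. Clcn1, the chloride channel of muscle, was at 10.4, 4.05, 7.12 and 7.64 in model 1 to 4, against 119, 484, 43.2 and 418 in sham 1 to 4, a log2 fold change of -4.51 ± 0.733. Pvalb, the calcium buffer of fast muscle fibres, was at 202, 19.2, 17.3 and 22.0 in model 1 to 4, against 2088, 14526, 459 and 13020.2 in sham 1 to 4, a log2 fold change of -6.66 ± 1.19. Mylk4, Ckmt2, Sypl2, Ppp1r3a, Scn4b, Trim54 and Fbxo40 had model 1 as the highest model library, with model 2, 3 and 4 between 0 and 3.82 and model 1 between 33.3 and 204, against sham libraries of 48.1 to 3759. Of these genes Fbxo40 had model 1 above 1 sham library, sham 3. Of 37 muscle list genes 30 were lower at p under 0.05 with all libraries and 34 without model 1, and the list's median was -5.08. Dmrt2, a transcription factor of early muscle, was at 1.04, 0, 3.05 and 0 in model 1 to 4, against 48.5, 59.3, 12.8 and 72.7 in sham 1 to 4, with 4 reads in all model libraries together. Acsl6, which activates fatty acids, was at 8.32, 9.11, 7.12 and 4.77 in model 1 to 4, against 59.7, 236, 32.4 and 175 in sham 1 to 4. Both were below sham in every model library.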

How the data were processed

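RNA of rat joint was sequenced in 12 libraries, of which the 4 model and 4 sham libraries are used. Per the labels' protocols, Trizol was used for extraction and the VAHTS Universal V5 kit for libraries. The tools were fastp and DESeq2 and the build mRatBN7.2, per the submitters' processing notes. The aligner, counter, annotation release and strand setting were not given in the sources used here. The authors deposited a normalised signal per gene and library, reads divided by a size factor of that table. Every value was a whole multiple of its library's step (100% at a tolerance of 0.001), so whole reads were recovered. The authors' deposited log2 fold changes and p-values were used only to count shared genes, since their table lists 422 changed genes. One emptied line of the table and the tables with treatment libraries are not used here.

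Tests used limma 3.58.1 in R 4.3.3 (trend and robust) on log2(value + 1), with a mean value of at least 1 needed for testing and Benjamini-Hochberg adjustment over 20205 genes at 0.05. The step was also tested on simulated data. edgeR 4.0.16, DESeq2 1.42.0 and limma-voom on recovered reads, other scalings, filters and pseudocounts and leaving out each library were alternatives. A few genes are not reported here by name but count in their lists. The 34 gene lists held 549 symbols, of which 526 matched and 523 were tested. Members, lists and the naming rule were chosen with earlier results of these data known. With the withheld genes left out, the rule named 69 genes, outside the muscle list with a mean value of at least 10 and more than 3 reads in each group. It took the 5 smallest p per direction, the 8 highest and 8 lowest fold changes past the adjusted threshold without model 1, the 2 smallest p per list, and list members past that threshold. Of the 69, Col16a1, Smtn, Prdm1, Cd28 and Ncr1 are not described above. Other list members are named for a count or for their known role, and were chosen after their values were seen. Lists were described by counts and medians beside all tested genes. Promoters of 300 bases are RefSeq's, in GRCr8, and were matched by symbol. Depth was 15513095 to 17078473 reads per library. Values carry spread between libraries as well as counting error.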

Additional observations from a re-analysis of the deposited data

Results flagged for a closer look

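Within a group of 4, a library was singled out where its gap to the nearest of the others, on the log2 scale, divided by the group's range, exceeded Dixon's 95% critical value. Over 138 groups of the 69 named genes 13 libraries met this, and chance flags about 1 in 20 groups. That rate is for groups not chosen by their values, and these genes were chosen by theirs.

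Model 1 stood apart in 6 genes. All but Col8a1 were named for their fold change in the fit without model 1. Col8a1 was named for its p in its list and also for passing the adjusted threshold in that fit. Both uses of that fit favour genes in which the other model libraries agree. Their flags are therefore no independent sign that model 1 differs. Model 1 was the highest model library for Ckmt2 (203.9), Sypl2 (85.3), Ppp1r3a (47.8) and Pvalb (201.8), all of striated muscle, and the lowest for Shisal1 (0) and Col8a1 (284). In Sypl2 and Ppp1r3a the other model libraries were all at 0. Model 4 was the lowest model library for Dhx58 (177.6) and Irf7 (1216), both of interferon sensing. Sham 1 was the highest sham library for Col5a1 (5209), Tgfbr2 (5685), Emcn (538) and Pdgfrb (2986), genes of matrix and vessels. Model 2 was the lowest model library for Ptgs2 (25.3).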

How the results depend on the processing

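The count of genes past the adjusted threshold was 0 with all 8 libraries under each pseudocount, filter and scaling tried, with edgeR, with limma-voom and with the trend and robust options off, and DESeq2 gave 604. Leaving out 1 library gave 0 to 169 genes, with 169 without model 1, 28 without sham 3 and 2 without model 4. Settings added after seeing the data also left out model 1. They gave 150 genes with TMM scaling, 162 with scaling to reads outside muscle genes and 0 with edgeR (4576 at an unadjusted p under 0.05), and 3 without sham 2 and sham 4 as well. Of the 69 named genes 0 changed direction under any setting, which their choice by p or fold change in these fits made likely. Medians of some lists did change sign, as given above.

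The labels do not say whether replicate numbers pair the samples. Deviations of model and sham libraries of the same number correlated at -0.44, -0.15, 0.07 and -0.03. So few values cannot show whether a number marks a batch. With the number as a replicate block 0 genes passed and 1749 had an unadjusted p under 0.05. The cause of these differences in counts was not tested.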
